A study of Mus musculus with 24 samples.

Results

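Ventricles of newborn FVB mice were compared with those of adults on 1-colour Affymetrix expression arrays, so that the comparison spans the whole of postnatal maturation. FVB is an inbred laboratory strain, and the labels give no genotype, treatment or surgery for any animal, neonates and adults alike. The neonate group (titled NN) has 3 arrays, whose titles each carry a pair of numbers and which may therefore be pools, and the labels state neither the exact age nor the sex of these pups. The 12 adult arrays form 4 groups of 3: females of 3 months, males of 5 months, females of 1 year, and animals of 1 year with an m in the title, whose sex the descriptions do not repeat. Each adult group was given equal weight, so that the f-titled and m-titled groups counted alike. The age of 1 year, held by both 1-year groups, counted for more than 3 or 5 months. Arrays at 1 week and 4 weeks, 3 of each, are used below to place a change in time. They and the arrays of embryonic day 12.5 also entered the fit of all 24 arrays. All of them therefore helped to set the floor, the filter and the spread behind each p-value of the fit. Samples of a group are labelled as separate samples; where pups were pooled or animals shared a litter, the p-values measure only the spread between these samples. The tissue is the whole ventricle, so a smaller number of cells of a type and less RNA per cell cannot be told apart.

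The members were all 9977 probe sets, sets of short probes for a transcript, that were not at 0 on all 24 arrays of the series and were not manufacturer controls, of 12654 in the table. After the lowest signals were set to a floor, 9952 probe sets of 7406 named genes were tested. Signals are linear and scaled to a common array mean, and differences are given below as adult minus neonate on the log2 scale, with standard errors and Benjamini-Hochberg adjusted p-values from limma's moderated test over all tested probe sets; a change was called at an adjusted p under 0.05. A signal was taken as near background when it lay under 124.6, the 95th percentile of probe sets for genes that mice lack. Where only some arrays of a side lay under it, a difference rests partly on such signals, and its value with the floor raised to 124.6 is given beside it where this moved it by over 1.5 times in fold. Signals of different genes are not compared, since each probe set binds its target differently.

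At birth the mouse heart is leaving fetal life: its muscle cells have been dividing and drawing much of their energy from glucose and lactate. In the weeks that follow, the cells stop dividing and grow, burn mainly fatty acids in an enlarged set of mitochondria, exchange fetal isoforms of contractile proteins for adult ones, and the growing matrix between them settles into slow turnover. These are textbook features of the tissue and were not inferred from these arrays.

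Between neonate and adult, 2405 probe sets (24.2% of those tested) passed the threshold, 1083 higher (10.9%) and 1322 lower (13.3%) in adults. Counted by gene, 899 were higher (12.1%) and 1055 lower (14.2%). Counts of list members called between neonate and adult are to be read against these shares. The 3 neonate arrays lay wholly outside the range of the 12 adult arrays for 590 genes that were higher in adults (7.97%) and for 806 that were lower (10.9%). The median log2 difference over all tested genes was -0.01. Taken singly against the same neonate arrays, the 3-month females gave 1843 called probe sets (18.5%), the 5-month males 1765 (17.7%), the 1-year females 1706 (17.1%) and the 1-year m-titled animals 1819 (18.3%). The 4 adult groups differed from one another at 70 probe sets (0.703%; moderated F test), a count that ranged from 37 without the 1-year female array 2 to 222 without the 1-year m-titled array 1 and was 40 without the 1-year female array 3 and 41 without the 5-month array 3. Between 4 weeks and adult, 113 probe sets were higher (1.14%) and 114 lower (1.15%); without 4-week array 1, 2 or 3 these counts were 66, 58 and 59 higher and 59, 56 and 61 lower.

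**Figure D1:**
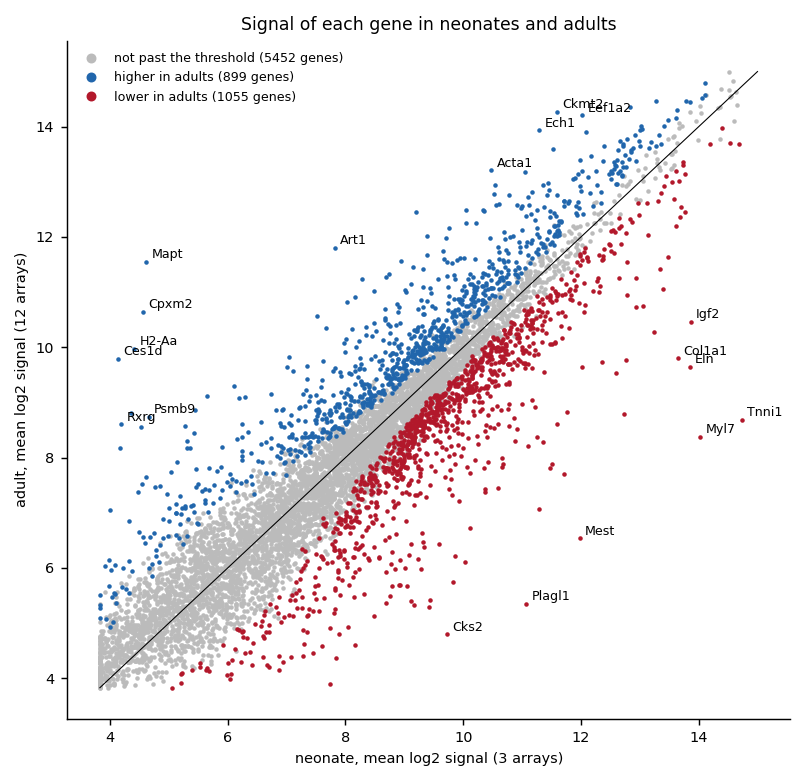
Mean log2 signal of each tested gene in the 3 neonate arrays (x axis) and the 12 adult arrays (y axis), 1 point per gene, with the line of equality. The 899 genes higher in adults are blue and the 1055 lower are red; Tnni1, Plagl1 and Myl7 lie farthest below the line and Mapt and Cpxm2 farthest above it.

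The array set was even in scale, with trimmed means of 500.4 to 500.6. Arrays of the same group correlated at r = 0.907 to 0.939 over log2 signals, and neonate with adult arrays at r = 0.848 to 0.895. Median signal, the 18S ribosomal probe set, the 3′ to 5′ ratios of actin and Gapdh, and the share of signals near background gave adjusted p-values of 0.0852 to 0.27 between neonate and adult arrays (exact permutation tests, two-sided, smallest possible p 0.0022). Adult minus neonate was -11.74 for median signal and 1.32 percentage points for the share near background. On the log2 scale it was -1.235 for 18S, 0.17 for the actin ratio and 0.15 for the Gapdh ratio. With 3 neonate arrays these tests do not show that array quality was equal. Of 13 measured cardiomyocyte markers, 1 was higher and 4 were lower in adults (median 0.01), where 12.1% of all tested genes were higher and 14.2% lower. Their summed signals overlapped, at 219553.4 to 254319.1 in neonates and 171350.5 to 410456 in adults. Among them Myh6, Tnni3 and Tnnc1, genes of heart muscle in atria and ventricles alike, had signals of 13378 or more on all 15 arrays. Such signals are near the top of the scale; whether any was saturated is not given, and a difference between saturated signals would be understated. Hemoglobin and a few other transcripts set the 3-month females apart from the other adults, and results that this touches are given with and without that group.

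The largest fall of all tested probe sets was that of a contractile protein isoform. Tnni1, the slow skeletal isoform of troponin I, the inhibitory subunit of the thin filament, gave 23506, 27565 and 31346 on the neonate arrays and 249.9 to 569.8 (median 424.7) on the adult arrays. No adult array came near a neonate one, and the log2 difference was -6.05 ± 0.19 (SE, adjusted p = 2.5e-17). The 1-week mean was still 25212, while the 4-week mean was 484, so that nearly all of the fall lay between those ages. Its adult cardiac partner Tnni3 was already abundant at birth, at 23268 to 23933 in neonates and 22282 to 63256 in adults; its difference of 0.48 ± 0.18 did not pass the threshold (adjusted p = 0.0518).

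Of the alpha-actins of the thin filament, Acta1 rose and Acta2 fell. Acta1, the skeletal isoform, gave 1275, 1423 and 1597 in neonates and 3730 to 12882 (median 11847) in adults, a rise of 2.73 ± 0.18 (SE, adjusted p = 1.97e-11). Every adult array was above every neonate array, and the lowest adult values came from the 1-year females. Acta2, the smooth muscle isoform that immature heart muscle also uses, fell from 6505, 7383 and 7027 in neonates to a median of 905.6 in adults (range 559 to 1452), a difference of -2.99 ± 0.19 (SE, adjusted p = 1.56e-11). Those groups did not overlap either, and the 4-week mean of 3146 lay between them. Actc1, the cardiac isoform, gave 21749 to 26430 in neonates and 20030 to 36657 in adults; its difference of 0.01 did not pass and changed sign with the arrays used.

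Of the myosin heavy chains, the motors of the thick filament, Myh7 encodes the slow beta form of the fetal mouse ventricle and Myh6 the fast alpha form of the adult one. Myh7 gave 22726, 28603 and 28492 in neonates and 7097 to 24449 (median 12361) in adults, a difference of -1.01 ± 0.26 (SE, adjusted p = 0.00524), with 1 neonate array inside the adult range. In the females alone it was -0.77 (adjusted p = 0.0569). The path was not a steady decline: the mean was 11013 at 1 week and 4701 at 4 weeks, and adults stood above the 4-week arrays by 1.50 ± 0.26 (adjusted p = 0.00117). Myh6 was at 21506 to 26213 in neonates and 20642 to 50888 in adults and did not pass (0.25, adjusted p = 0.339).

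**Figure D2:**
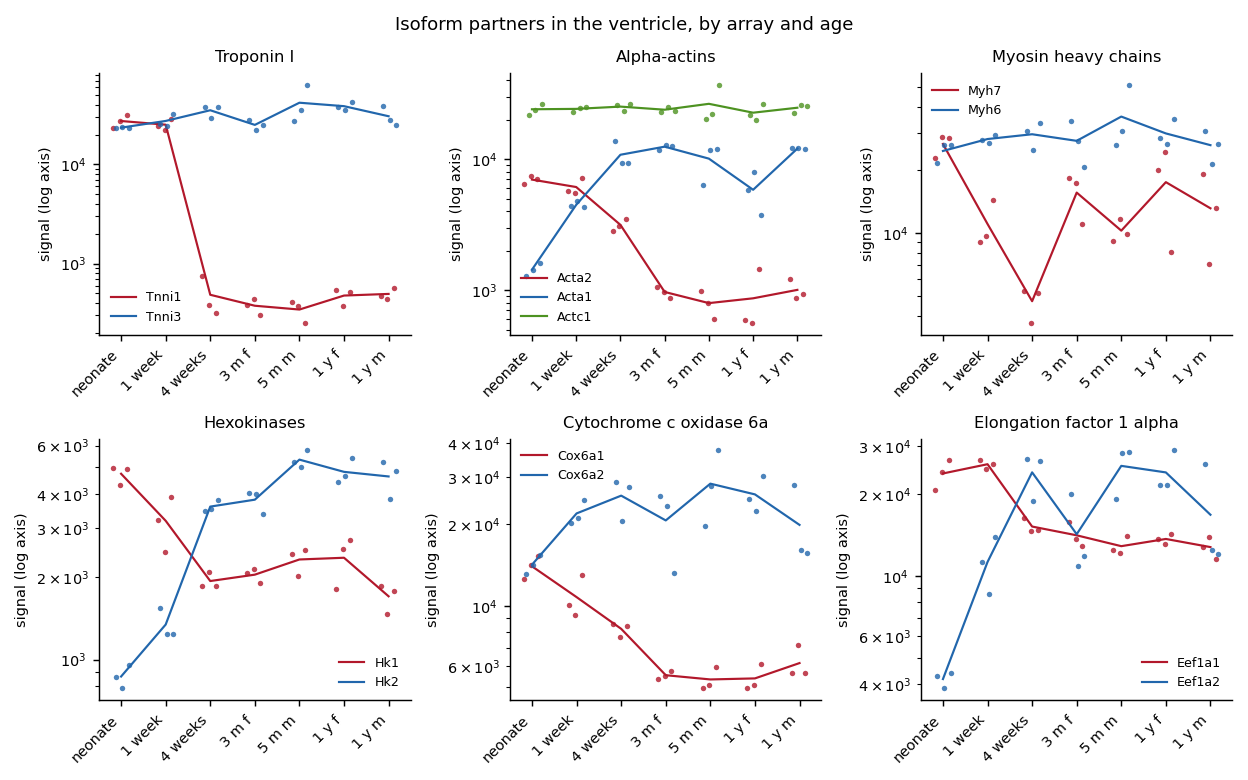
Signals of 6 sets of isoform partners on every array (points) and group means (lines) from neonate through 1 week and 4 weeks to the 4 adult groups (m and f after the age as in the titles; log axis). Tnni1 drops between 1 week and 4 weeks, the means of Acta1, Hk2, Cox6a2 and Eef1a2 in every adult group lie above their own neonate means, and those of Acta2, Hk1, Cox6a1 and Eef1a1 below theirs; heights of different genes cannot be compared.

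Among myosin light chains, Myl7, the regulatory chain of atrial muscle, fell most. Its neonate arrays gave 16465, 16756 and 16889 and its adult arrays 38.1 to 5081 (median 321.35), a difference of -5.65 ± 0.73 (SE, adjusted p = 1.52e-06). With the 1-year groups only it was -4.94, and with 3m_f and 5m_m only -6.37. The adult arrays were widely spread: 9 of the 12 were under 1000, and the highest, 5081, was 1 of the arrays of 1-year m-titled animals. Myl4, the atrial essential chain, had a lower value of -1.22 (adjusted p = 0.0338), a call that was lost under 8 of 29 alternative runs, with adjusted p up to 0.265. Among these were the f-titled groups only and both 1-year groups only. Others were without neonate array 1, at -1.07 (adjusted p = 0.16), without neonate array 2, at -1.04 (adjusted p = 0.167), and without the 1-year female array 1, at -1.14 (adjusted p = 0.0502). The ventricular chains Myl2 (-0.50, adjusted p = 0.655) and Myl3 (-0.01, adjusted p = 0.982) did not pass. A single 3-month female array had Myl2 at 301.8, where the other adults gave 13531 or more; without it the difference was -0.02 (adjusted p = 0.966). Tnnt2, cardiac troponin T, rose by 0.47 ± 0.13 (SE, adjusted p = 0.0116), but not without neonate array 1, where it was 0.42 (adjusted p = 0.0789). Its call was lost under 3 of 29 alternative runs, the f-titled groups only among them. The slow skeletal form Tnnt1 did not pass (-0.12, adjusted p = 0.705).

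Most atrial transcripts fell in this comparison of ventricles. Of 10 measured atrial marker genes, 6 fell and none rose; the summed signal was 29440 to 30523 on neonate arrays and 2898 to 12892 on adult arrays. Nppa, the atrial natriuretic peptide, which fetal ventricles also make, fell from 7889, 8402 and 9170 in neonates to a median of 1528 in adults (range 736.2 to 4421), a difference of -2.30 (adjusted p = 1.74e-08). Dkk3, a secreted Dickkopf family protein, fell by 2.83 (adjusted p = 3.24e-07), and Kcna5, a potassium channel on the atrial list, did not pass (0.46, adjusted p = 0.0571). The part of residual atrial tissue in the fall of Myl7, Myl4 and Nppa was not tested.

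Over the fetal cardiac genes as a list, 11 of 17 measured members fell and 2 rose, with a median difference of -0.91. Kcne1, the accessory subunit of the slow delayed rectifier potassium channel, gave 1084, 1106 and 940.9 in neonates and 39.3 to 201.4 (median 68.55) in adults, a difference of -3.91 (adjusted p = 1.09e-09), or -3.001 with the floor at 124.6, and no arrays overlapped. Nkx2-5, a transcription factor of cardiac identity, fell by 0.91 (adjusted p = 4.33e-06). The 2 that rose were Acta1 and Nppb, the B-type natriuretic peptide (0.66, adjusted p = 0.0256). Without the 3-month females Nppb was 0.30 (adjusted p = 0.389), without neonate array 2 0.55 (adjusted p = 0.16) and without neonate array 3 0.64 (adjusted p = 0.0911). Its call was lost under 7 of 29 alternative runs, the m-titled groups only and both 1-year groups only among them.

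Of 19 adult contractile and calcium-handling genes, 8 rose and 1 fell, and the median was 0.39. Hrc, the histidine-rich calcium-binding protein of the sarcoplasmic reticulum, gave 1243, 1190 and 1520 in neonates and 4216 to 7384 (median 6041) in adults, a rise of 2.12 ± 0.12 (SE, adjusted p = 8.73e-13). Its groups were far apart, and the 4-week mean was already 6313. Ankrd1, a stretch-responsive protein of the sarcomere and nucleus, behaved otherwise: neonates gave 7626, 6605 and 7710, 1-week and 4-week means were 6460 and 7919, and adults gave 16574 to 28986 (median 21178), a difference of 1.53 (adjusted p = 1.97e-09). Its rise lay after 4 weeks, with adults above 4-week arrays by 1.43 ± 0.13 (adjusted p = 9.38e-08). Csrp3, a muscle LIM protein of the Z-disc, rose by 0.96 (adjusted p = 1.41e-05). Slc8a1, the sodium-calcium exchanger that removes calcium from the cell, fell from 6831, 7206 and 5684 in neonates to a median of 3743 in adults (range 2674 to 4704), a difference of -0.81 (adjusted p = 6.43e-05). The calcium buffers Casq2 (-0.08, adjusted p = 0.742) and Casq1 (0.11, adjusted p = 0.543) did not pass between neonate and adult, though Casq1 had a 4-week mean of 10346, above neonates by 1.87 (adjusted p = 1.09e-09).

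Most measured genes of mitochondrial energy supply rose, by moderate amounts. Of 60 members of oxidative phosphorylation, 37 rose, 1 fell and 22 did not pass, with a median of 0.52; of 19 in the tricarboxylic acid cycle and pyruvate dehydrogenase, 10 rose, none fell and 9 did not pass (median 0.36). The largest rise among the former was Cox7a1, the muscle isoform of a cytochrome c oxidase subunit, with 1438, 1590 and 1388 in neonates and 5894 to 9658 (median 6681) in adults, a difference of 2.25 ± 0.11 (SE, adjusted p = 1.91e-13). No arrays overlapped, and its widely expressed partner Cox7a2 did not pass (0.25, adjusted p = 0.136). Ndufb3, a subunit of complex I, rose by 1.65 (adjusted p = 1.13e-08). Ndufs4, another complex I subunit, was near background on the neonate arrays and at least 1.36-fold higher in adults (adjusted p = 0.00638), a call lost without neonate array 1, at 0.88 (adjusted p = 0.156).

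The single member that fell was Cox6a1, the widely expressed isoform of another cytochrome c oxidase subunit, from 12572, 14101 and 15328 in neonates to a median of 5575 in adults (range 4948 to 7164), a difference of -1.32 ± 0.11 (SE, adjusted p = 1.64e-09). Every adult array was below every neonate array. Its heart and muscle partner Cox6a2 rose by 0.68 (adjusted p = 0.0152), but did not pass without neonate array 1, at 0.63 (adjusted p = 0.0861), or without neonate array 2, at 0.68 (adjusted p = 0.06). Cox8a signals were near background (-0.10, adjusted p = 0.936). In the tricarboxylic acid cycle, Ogdh, the catalytic subunit of 2-oxoglutarate dehydrogenase, gave 4230, 4351 and 4505 in neonates and 12287 to 20698 (median 15240) in adults, a difference of 1.81 (adjusted p = 1.39e-10), and Sucla2 of succinyl-CoA ligase and Pdha1 of pyruvate dehydrogenase rose by 1.24 and 1.00.

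Fatty acid genes were not uniform. Of 26 measured, 13 rose and 2 fell (median 0.47). Ech1, an isomerase of beta-oxidation, gave 1820, 2896 and 2959 in neonates and 11194 to 19709 (median 15629) in adults, a rise of 2.65 ± 0.13 (SE, adjusted p = 9.38e-14). The groups were well separated, and the mean had reached 5384 at 1 week. Cd36, which carries fatty acids into the cell, rose by 1.89 (adjusted p = 1.2e-05), and Slc27a1, a fatty acid transporter, by 1.50 (adjusted p = 3.61e-05). The 2 that fell were Cpt1a, the liver-type carnitine palmitoyltransferase that admits fatty acids to mitochondria, from 2364, 2869 and 1769 in neonates to a median of 544.4 in adults (range 260.8 to 1012), a difference of -2.11 (adjusted p = 2.71e-07), and Acot1, an acyl-CoA thioesterase (-1.56, adjusted p = 8.98e-07). Of 10 genes for the breakdown of ketone bodies and branched-chain amino acids, 8 rose and none fell, with a median of 1.25. Oxct1, which activates ketone bodies for use as fuel, gave 1448, 845.6 and 981.8 in neonates and 5160 to 7283 (median 5595) in adults, a difference of 2.44 (adjusted p = 1.51e-12), and Bckdha and Dbt of the branched-chain keto acid dehydrogenase rose by 1.91 and 1.67.

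In glycolysis and glucose transport, 7 of 15 genes rose and 3 fell, where 12.1% of all tested genes were higher and 14.2% lower. Hk1, the hexokinase of most tissues, fell from 4985, 4295 and 4929 in neonates to a median of 2035 in adults (range 1466 to 2712), a difference of -1.19 (adjusted p = 2.07e-07). Hk2, the insulin-responsive muscle hexokinase, rose from 863.8, 784.9 and 954.5 in neonates to a median of 4736 in adults (range 3384 to 5757), a difference of 2.41 (adjusted p = 1.76e-14). Neither pair of groups overlapped. Slc2a4, the insulin-responsive glucose transporter GLUT4, rose from 823.5, 628.8 and 581.4 in neonates to a median of 3389 in adults (range 2783 to 3612), a difference of 2.29 (adjusted p = 3.21e-09), while Slc2a1, the constitutive transporter GLUT1, was mostly near background and did not pass (-0.39, adjusted p = 0.724). Pfkm, muscle phosphofructokinase, rose by 1.17 (adjusted p = 9.43e-08), and Pgk1, phosphoglycerate kinase, fell by 0.69 (adjusted p = 1.7e-05). The platelet isoform Pfkp fell by 0.98 (adjusted p = 0.00533), but was -0.65 (adjusted p = 0.123) without neonate array 1. The muscle enzymes Eno3 and Pgam2 rose by 0.52 and 0.69, and Ldhb, the heart form of lactate dehydrogenase, by 0.67 (adjusted p = 0.00399); Ldha, the muscle form, did not pass (-0.03, adjusted p = 0.905).

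Of 10 genes of high-energy phosphate and oxygen handling, 6 rose and 2 fell (median 0.62). Ckmt2, the mitochondrial creatine kinase of striated muscle, gave 3069, 3033 and 3155 in neonates and 15080 to 35481 (median 18785) in adults, a rise of 2.67 ± 0.19 (SE, adjusted p = 9.12e-11). No adult array fell within the neonate range, and the 1-week mean was 13102. Mb, myoglobin, rose by 1.19 (adjusted p = 0.000119), and the brain-type creatine kinase Ckb fell by 1.04 (adjusted p = 0.000197). Of the exchangers of ADP and ATP across the inner mitochondrial membrane, Slc25a5 fell by 0.79 (adjusted p = 3.71e-06), though its other 2 probe sets did not pass, and the heart isoform Slc25a4 did not pass (0.44, adjusted p = 0.0567). Regulators of metabolism gave 4 rises and 3 falls among 15 (median -0.22), where 12.1% of all tested genes were higher and 14.2% lower. Rxrg, a retinoid X receptor, was near background at birth, at 20.2, 21.1 and 12.8, and gave 248 to 587 (median 401.05) in adults, at least 3.13-fold higher (adjusted p = 8.29e-09). Ppara, a fatty acid-sensing nuclear receptor, rose by 0.69 (adjusted p = 0.000515), and Hif1a, the oxygen-regulated factor, fell from 4693, 4746 and 6123 in neonates to a median of 2235 in adults (range 1583 to 2659), a difference of -1.22 (adjusted p = 2.37e-06). Ppargc1a, a coactivator of mitochondrial genes named here after its values were seen, did not pass (0.20, adjusted p = 0.723).

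**Figure D3:**
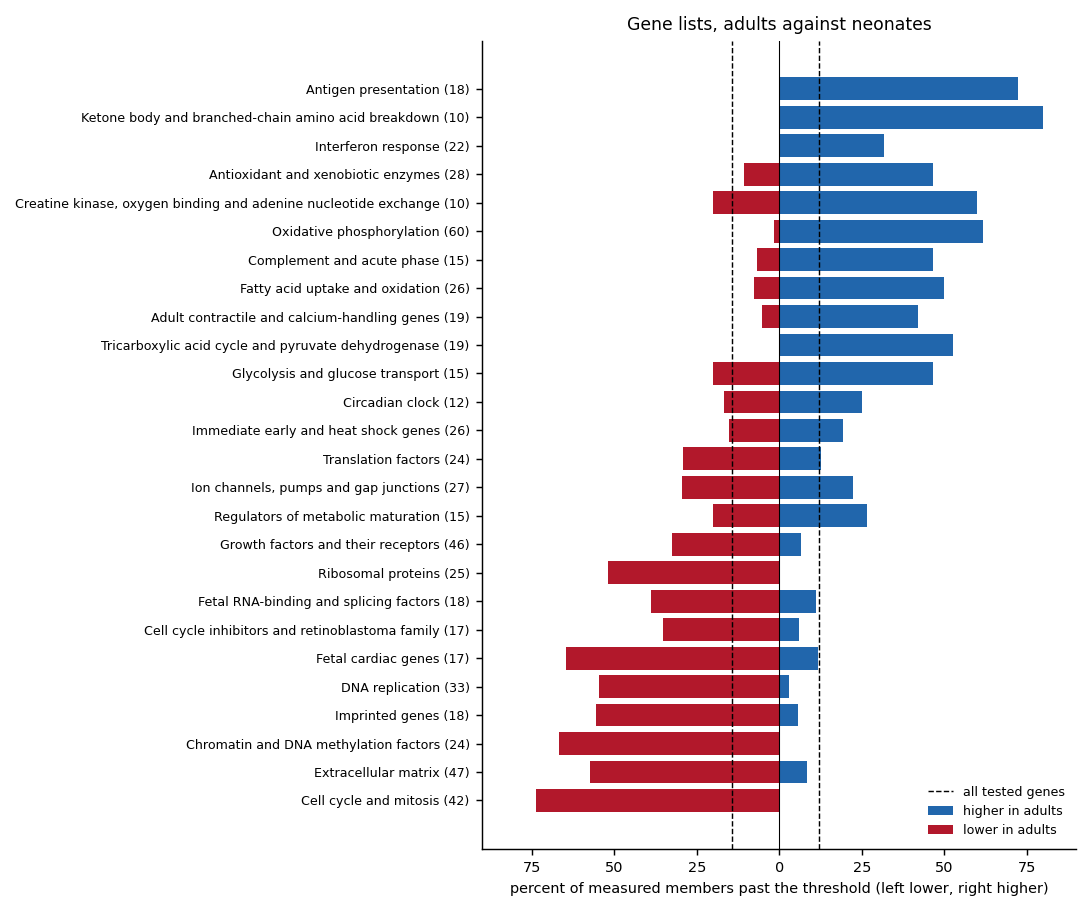
Percent of measured members of each gene list that were higher (right, blue) or lower (left, red) in adults than in neonates, with the number of measured members in parentheses and dashed lines at the shares for all tested genes (12.1% higher, 14.2% lower). Lists are ordered by median difference, with antigen presentation at the top and the cell cycle at the bottom.

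Most transcripts of cell division fell. Of 42 measured cell cycle and mitosis genes, 31 fell and none rose, with a median of -2.04. Cks2, a small subunit of the cyclin-dependent kinases, gave 1706, 515.5 and 695.3 in neonates and 8.9 to 88.4 (median 24.3) in adults, at least 6.81-fold lower (adjusted p = 7.09e-09). Cdk1, the kinase that drives entry into mitosis, fell from 1347, 723.4 and 829.4 in neonates to a median of 76.65 in adults (range 22.6 to 222.2), a difference of -3.65 (adjusted p = 3.23e-06), or -2.75 with the floor at 124.6. Prc1, which bundles microtubules of the dividing spindle, fell from 896, 446.6 and 417.5 in neonates to a median of 39.05 in adults (range 25.8 to 125.7), a difference of -3.71 (adjusted p = 7.16e-08), or -2.14 with the floor at 124.6; 11 of its 12 adult arrays and 9 of those of Cdk1 were near background. In each of these the neonate arrays were all above the adult ones and array 1 was the highest neonate array. Against neonates, none of the 42 was called at 1 week, when 1.47% of all genes were higher and 0.837% lower, and 28 had fallen at 4 weeks, when the shares were 7.82% and 8.18%; none was called between 4 weeks and adult.

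The promoters of these genes were searched for shared sequence elements. RefSeq promoters (mouse build GRCm38.p6) were searched over the 250 bases before the start, on both strands, for CCAAT, the CCAAT box bound by NF-Y, and for TTTGAA, the core of the cell cycle homology region; the motifs may overlap where their letters allow. A promoter was found for 26 of the 31 cell cycle genes that fell; 21 of them (80.8%) held CCAAT, against 37.5% of all genes, and 12 (46.2%) held TTTGAA, against 18.3%. Both stood in 14 of their 29 promoters (48.3%) and in 5.55% of all 32851 promoters. Other motifs and lists were searched as well. The E2F consensus TTTCCCGC stood in 1 of the 26 genes, in 2 of 17 DNA replication genes that fell, and in 1.03% of all genes. An extended nuclear receptor half-site stood in 0 of 29 oxidative phosphorylation and 0 of 11 fatty acid genes that rose, against 1.3%. CCAAT stood in 8 of these 29 (27.6%) and 5 of these 11 (45.5%). A match is a description of the sequence and not evidence of binding. The 3 members with the largest falls that held both in the last 160 bases before the start are shown, outside a chromosome whose promoters were left out of this display. The third is Mki67, the Ki-67 proliferation antigen, at least 2.31-fold lower in adults (adjusted p = 4.09e-06) and named after its values were seen. Capitals mark TTTGAA, and CCAAT or its reverse complement ATTGG.
Prc1 (chr7:80294316-80294475, + strand): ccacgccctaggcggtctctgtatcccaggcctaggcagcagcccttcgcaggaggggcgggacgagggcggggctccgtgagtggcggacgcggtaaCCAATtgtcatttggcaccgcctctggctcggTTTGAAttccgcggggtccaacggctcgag
Cdk1 (chr10:69352913-69353072, - strand): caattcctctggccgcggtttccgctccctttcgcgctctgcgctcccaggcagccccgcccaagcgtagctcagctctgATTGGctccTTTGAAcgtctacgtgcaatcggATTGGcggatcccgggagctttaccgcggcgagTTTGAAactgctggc
Mki67 (chr7:135716380-135716539, - strand): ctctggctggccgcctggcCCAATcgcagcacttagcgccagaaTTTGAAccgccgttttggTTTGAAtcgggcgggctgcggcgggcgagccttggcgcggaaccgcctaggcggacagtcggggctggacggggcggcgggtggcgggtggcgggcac

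Of 33 DNA replication genes, 18 were lower and 1 higher, with a median of -1.01. Rrm2 and Rrm1, the subunits of ribonucleotide reductase, which supplies the building blocks of DNA, had differences of -3.15 (adjusted p = 4.72e-06) and -2.87 (adjusted p = 3.17e-05), or -2.49 and -1.84 with the floor at 124.6, and Mcm5 of the replicative helicase one of -2.33 (adjusted p = 7.9e-06). The member called higher, Mcm6, had signals of 31.6, 5.7 and 12.5 in neonates and 29.3 to 106.3 in adults, all near background, and was not called without neonate array 2, at 1.60 (adjusted p = 0.094), or array 3, at 1.60 (adjusted p = 0.0891). TTTGAA stood in 2 of 17 of these genes with a promoter and CCAAT in 10. Of 24 chromatin factors, 16 fell and none rose (median -1.05). Uhrf1, which guides maintenance DNA methylation, was at least 4.12-fold lower (adjusted p = 6.98e-07). Its partner Dnmt1, the maintenance methyltransferase, fell from 963.8, 970.5 and 977.7 in neonates to a median of 104.1 in adults (range 48.4 to 503.1), a difference of -2.71 (adjusted p = 2.07e-07). The adult arrays of both female groups were near background, and the difference was -3.73 in the f-titled and -1.70 in the m-titled groups. The histone variant H2az1 fell by 1.97 (adjusted p = 9.24e-08).

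Among inhibitors of the cell cycle, 17 were measured, of which 1 rose and 6 fell (median -0.42). Over all tested genes the shares were 12.1% higher and 14.2% lower. Cdkn1c, an imprinted inhibitor of cyclin-dependent kinases, fell from 2261, 1530 and 1491 in neonates to a median of 506.65 in adults (range 267.6 to 879.4), a difference of -1.88 (adjusted p = 4.74e-08), with no overlap. Gadd45a, a stress-induced growth arrest gene, was the one that rose (1.32, adjusted p = 0.000291). Cdkn1a, which encodes p21, had a difference of -1.19 (adjusted p = 0.011), or -1.08 (adjusted p = 0.075) without neonate array 1, and Rbl1, which encodes p107, one of -1.26 (adjusted p = 0.00734), or -1.15 (adjusted p = 0.0518) without neonate array 3.

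Imprinted genes, expressed from a single parental copy and often promoting fetal growth, held several of the deepest falls. Of 18 measured, 10 fell and 1 rose (median -1.02). Plagl1, a zinc finger factor, gave 2114, 2265 and 2059 in neonates and 3.1 to 109.5 (median 44.9) in adults, at least 17.2-fold lower (adjusted p = 8.63e-09). Mest, a hydrolase family protein, fell from 5265, 3636 and 3443 in neonates to a median of 129.25 in adults (range 15.5 to 186.9), a difference of -5.44 ± 0.49 (SE, adjusted p = 5.73e-09), or -4.81 with the floor at 124.6. Peg3, a zinc finger factor, fell from 2979, 3563 and 3611 in neonates to a median of 202.85 in adults (range 141.3 to 331), a difference of -4.01 (adjusted p = 4.3e-15). In none of these did an adult array reach the neonate range, as the naming rule required of the 15 largest falls. The 1-week means of 557, 1551 and 1240 lay between the groups. Igf2, the fetal insulin-like growth factor, stayed high longer: neonates gave 16554, 13585 and 14694, the 1-week mean was 13500, the 4-week mean 2589, and adults gave 1206 to 1821 (median 1360), a difference of -3.40 ± 0.12 (SE, adjusted p = 1.6e-16). A second, dim probe set for Igf2 did not pass. Igf1, the postnatal factor, did not pass (0.30, adjusted p = 0.0926), while another of its probe sets fell by 1.90 (adjusted p = 0.000882). The member that rose was Dcn, the matrix proteoglycan decorin (0.94, adjusted p = 4.42e-07).

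Other falls among the 15 largest came from less characterised genes and from metabolism. Bex4 and Bex1, small X-linked proteins, were lower, Bex4 at -4.21 (adjusted p = 9.74e-12) and Bex1 at least 5.58-fold (adjusted p = 2.82e-08). H1f10, a linker histone, was at least 5.52-fold lower (adjusted p = 1.27e-09). Pdk3, a kinase that switches off pyruvate dehydrogenase, gave 1029, 910.3 and 786.2 in neonates and 13.5 to 101.2 (median 58.8) in adults, at least 7.25-fold lower (adjusted p = 3.57e-08). The naming rule took these 4 genes from those whose neonate and adult arrays did not overlap.

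Protein synthesis genes shifted modestly. Of 25 ribosomal proteins 13 fell and none rose (median -0.37), among them Rpl10a at -0.85 (adjusted p = 1.51e-05) and Rps4x at -0.64 (adjusted p = 0.000152). Of 24 translation factors 3 were higher and 7 lower (median 0.04), where 12.1% of all tested genes were higher and 14.2% lower. Eef1a1, the elongation factor of most cells, fell from 20661, 24136 and 26643 in neonates to a median of 13377 in adults (range 11566 to 15743), a difference of -0.83 (adjusted p = 1.3e-05). Eef1a2, its counterpart in muscle and neurons, rose from 4283, 3853 and 4384 in neonates to a median of 20782 in adults (range 10849 to 28943), a difference of 2.18 (adjusted p = 1.1e-08). Both were without overlap. Pabpc1, the poly(A)-binding protein, fell by 1.84 (adjusted p = 1.74e-08). Of 18 fetal RNA-binding and splicing factors 7 fell and 2 rose (median -0.37), beside the same shares. Igf2bp1, a fetal RNA-binding protein, was lower at -2.66 (adjusted p = 7.99e-05), or -1.18 with the floor at 124.6. Mbnl1, a regulator of adult splicing, was higher by 0.91 (adjusted p = 8.46e-05).

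Most extracellular matrix genes fell between neonate and adult. Of 47 measured genes 27 fell, 4 rose and 16 did not pass (median -1.13). Against neonates, none was lower and 3 were higher at 1 week, where 0.837% of all tested genes were lower and 1.47% higher. The absence of called falls at 1 week is thus near the share over all genes. At 4 weeks 20 were lower and 3 higher, where the shares were 8.18% and 7.82%. Eln, elastin, gave 13816, 15286 and 15229 in neonates and 645.7 to 1173 (median 757.7) in adults, a difference of -4.20 ± 0.15 (SE, adjusted p = 1.07e-16). Col1a1, the main chain of fibrillar type I collagen, fell from 15035, 12385 and 11466 in neonates to a median of 930.45 in adults (range 638.5 to 1176), a difference of -3.85 ± 0.12 (SE, adjusted p = 1.67e-17); its other probe set fell by 2.32. Postn, periostin of growing connective tissue, fell from 7462, 6370 and 6551 in neonates to a median of 429.55 in adults (range 265.8 to 641.3), a difference of -3.93 (adjusted p = 1.51e-12). These groups were far apart on every array, yet the 1-week means of Eln and Col1a1 were 20065 and 15471 and the 4-week means 5578 and 4897.

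The log2 difference of adults from 4-week arrays was -2.79 ± 0.15 for Eln (adjusted p = 3.29e-12) and -2.46 ± 0.12 for Col1a1 (adjusted p = 9.71e-13). Between 4 weeks and adult, 19 of the 47 matrix genes were lower and 1 higher, where the shares over all tested genes were 1.27% and 1.12%. Nid2, a basement membrane nidogen, was at least 4.62-fold lower in adults than in neonates (adjusted p = 1.49e-07). Lamb2, a laminin chain, and Col8a1, a short-chain collagen, rose by 1.51 (adjusted p = 1.95e-07) and 1.40 (adjusted p = 0.0025).

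Markers of matrix-making cells moved beside these genes. Of 19 fibroblast and epicardium markers, several of which are matrix genes themselves, 10 fell and 1 rose (median -1.11), and their summed signal was 43818 to 54313 in neonates and 20268 to 25797 in adults. Krt19, an epithelial keratin, was at least 1.71-fold lower (adjusted p = 1.08e-06), while Dcn rose and Lum, lumican of fibroblasts, did not pass (0.12, adjusted p = 0.668). Summed smooth muscle and pericyte markers were 13327 to 15679 in neonates and 8021 to 10936 in adults. Of 11 members, however, 3 were lower and 4 higher, with a median of 0.52. The sum holds Acta2, which immature heart muscle also uses, at 6505 to 7383 in neonates and 559 to 1452 in adults. A lower sum is therefore not a fall of the list as a whole. Tagln and Cnn1, contractile proteins of smooth muscle, were lower, Tagln at -1.65 (adjusted p = 2.18e-09) and Cnn1 at least 2.88-fold (adjusted p = 1.21e-06), and Des, desmin, was higher by 0.80 (adjusted p = 0.000132). The part of cell numbers in the matrix result was not tested.

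**Figure D4:**
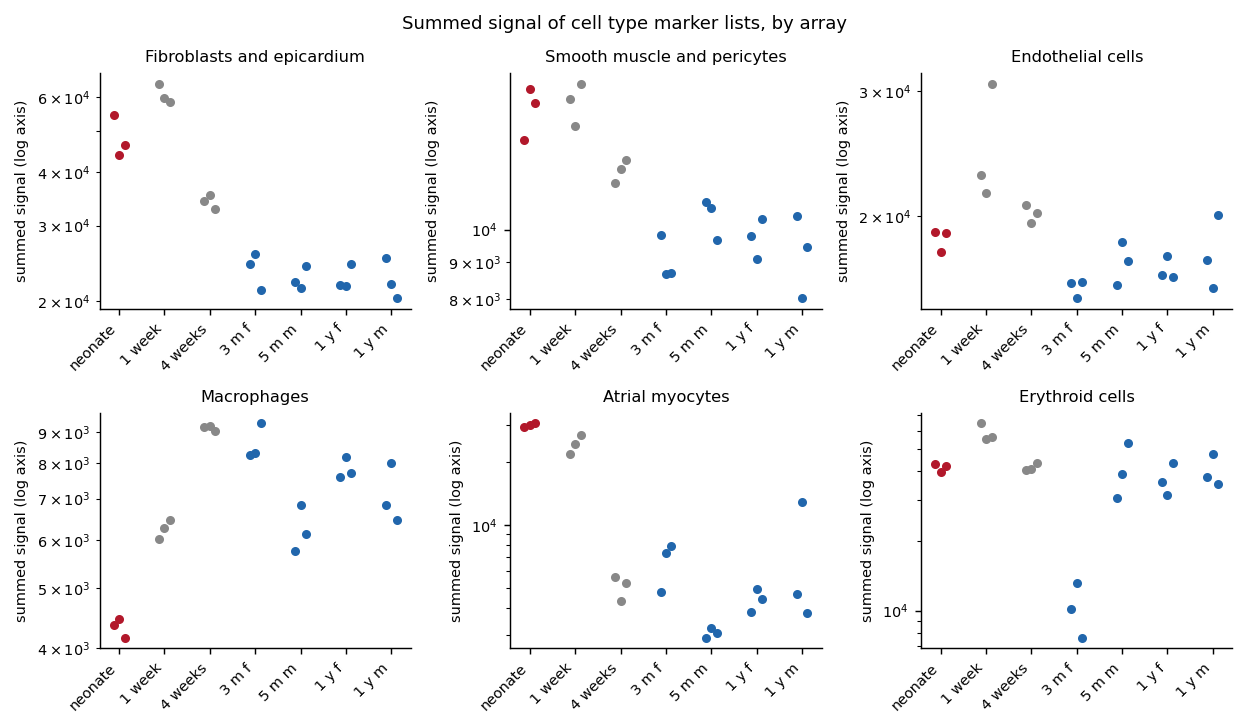
Summed signal of 6 cell type marker lists on each array, from neonate (red) through 1 week and 4 weeks (grey) to the 4 adult groups (blue; log axis). Fibroblast, smooth muscle and atrial sums are higher in all neonate than in all adult arrays, macrophage sums are lower, and erythroid sums are lowest in the 3-month females. The smooth muscle sum includes Acta2, which immature heart muscle also uses.

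Growth factor and channel genes changed in part. Of 46 growth factors and receptors 15 fell and 3 rose (median -0.27), where 14.2% of all tested genes were lower and 12.1% higher. Bmp7, a bone morphogenetic protein, was at least 4.24-fold lower (adjusted p = 4.39e-08), with 662.6, 482.4 and 461.7 in neonates. Vegfb, a vascular growth factor, rose by 0.90 (adjusted p = 0.00011). Of 27 channels, pumps and gap junction genes 8 fell and 6 rose (median 0.04), beside the same shares. Kcnj11, the pore of the ATP-sensitive potassium channel, rose from 284.1, 545 and 403 in neonates to a median of 1099 in adults (range 804.9 to 1661), a difference of 1.50 (adjusted p = 1.36e-05), and Gja4, the connexin of arterial endothelium, fell by 2.25 (adjusted p = 0.00103); with the floor at 124.6 its difference was -1.39.

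The largest rises came mostly from genes near background at birth. Mapt, the microtubule-associated protein tau, gave 15, 29.1 and 33.9 in neonates and 1932 to 4481 (median 2818) in adults, at least 24.1-fold higher (adjusted p = 8.97e-17). Its other 2 probe sets rose by less, 3.33 (adjusted p = 4.12e-12) and 1.62 (adjusted p = 0.000906), so the size of the rise depends on the probe set. Cpxm2, a carboxypeptidase-like secreted protein, gave 10.7, 10.4 and 64.5 and 991.2 to 2270 (median 1568), at least 12.9-fold higher (adjusted p = 1.36e-08). Their timing differed: the 1-week mean of Mapt was already 1058, while Cpxm2 was 71.4 at 4 weeks, near background, and its adults were above the 4-week arrays (adjusted p = 5.91e-06). Ces1d, a carboxylesterase, gave 15.8, 24.3 and 13.9 in neonates and 521 to 1323 (median 877.85) in adults, at least 7.09-fold higher (adjusted p = 1.31e-09). Art1, an ADP-ribosyltransferase of muscle, rose from 150.9, 315.2 and 243.4 in neonates to a median of 3578 in adults (range 3193 to 4162), a difference of 3.98 ± 0.19 (SE, adjusted p = 4.24e-14).

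Other genes came from the 15 largest rises, which were taken from genes whose neonate and adult arrays did not overlap. Inmt, an N-methyltransferase, was at least 3.61-fold higher, Rai2 at least 2.33-fold and Bdnf, brain-derived neurotrophic factor, at least 3.04-fold (adjusted p = 9.71e-09, 2.35e-07 and 2.36e-08). Vamp5, a SNARE protein of muscle, rose by 3.05 (adjusted p = 2.11e-09), or 2.35 without neonate array 3. Nqo1, a quinone reductase, rose by 3.47 (adjusted p = 8.87e-06); it was 2.14 with the floor at 124.6, 2.79 without neonate array 1 and 4.16 without array 2. It belongs to a list of antioxidant and xenobiotic enzymes of which 13 of 28 rose and 3 fell (median 0.63). In that list Ephx1, an epoxide hydrolase, and Gstt1, a glutathione transferase, were at least 1.94-fold and 2.85-fold higher (adjusted p = 6.4e-07 and 0.00182), and Gpx3, the secreted glutathione peroxidase, fell by 0.89 (adjusted p = 1.71e-05).

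**Figure D5:**
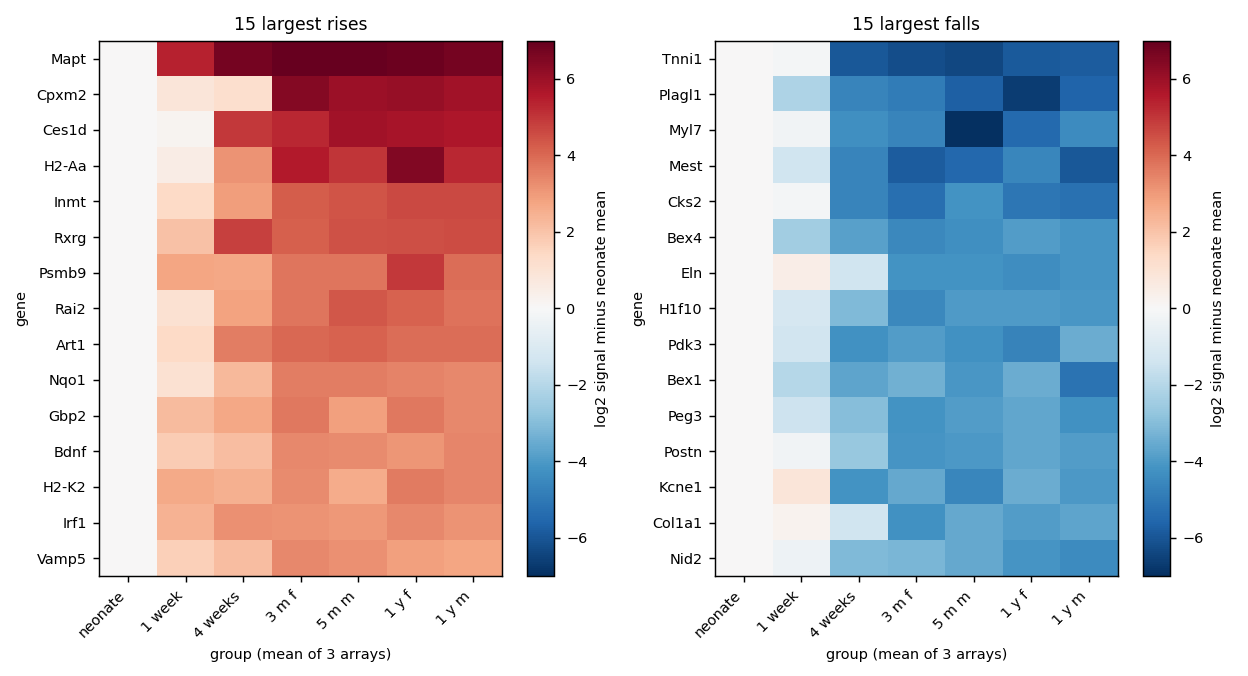
Mean log2 signal minus the neonate mean for the 15 largest rises (left) and 15 largest falls (right), by group, 3 arrays each; red is above and blue below the neonate mean. Mapt is deep red from 1 week on, Cpxm2 is pale red at 1 week and 4 weeks and deep red in adults, Tnni1 turns blue at 4 weeks, and Eln and Col1a1 deepen after 4 weeks; differences of genes near background in neonates or adults rest on signals close to the floor.

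Of 18 antigen presentation genes, 13 rose and none fell, with a median of 1.79. H2-Aa, a chain of the class II molecule that shows peptides to helper T cells, gave 25.2, 17.5 and 21.9 in neonates and 665.3 to 2663 (median 904.25) in adults, at least 8.09-fold higher (adjusted p = 1.25e-11). Cd74, the class II chaperone, rose from 448, 244.4 and 269.9 in neonates to a median of 2172 in adults (range 1658 to 5651), a difference of 2.96 ± 0.20 (SE, adjusted p = 2.12e-11). Psmb9, an immunoproteasome subunit that cuts peptides for class I molecules, gave 29, 22.8 and 24.2 and 186 to 1082 (median 389.35), at least 3.44-fold higher (adjusted p = 3.42e-10). Every adult array exceeded every neonate array in these genes.

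The class I genes H2-K1 and H2-D1 and their light chain B2m, named after their values were seen, rose by 1.99 (adjusted p = 7.81e-10), 2.01 (adjusted p = 2.12e-11) and 2.15 (adjusted p = 2.17e-06). Their 1-week means of 5748, 5254 and 4535 were above those at 4 weeks, 3078, 3573 and 2641, but the 1-week arrays were widely spread. For B2m they gave 7236, 1416 and 4952, the second of them below every 4-week array. H2-K2 rose by 3.24 (adjusted p = 1.1e-08), or 2.57 without neonate array 3; class I genes are near-identical, and their probe sets may bind one another's transcripts. Of the 18 members, 7 were higher in adults than at 4 weeks and none lower, with H2-Aa above by 2.45 (adjusted p = 0.000111).

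Interferon response genes gave 7 rises and no fall among 22 (median 0.89). Gbp2, a guanylate-binding protein, rose by 3.42 (adjusted p = 3.67e-07), with 2 of its 3 neonate arrays near background; it was 1.79 with the floor at 124.6 and 4.33 without neonate array 1. Iigp1, a GTPase of cell defence, rose by 2.80 (adjusted p = 6.99e-05), and by 3.49 in the f-titled and 2.10 in the m-titled groups. Irf1, the transcription factor upstream of many such genes, was at least 5.03-fold higher (adjusted p = 4.15e-10). Among the antigen presentation genes that rose, 10 had a RefSeq promoter and 8 of these (80%) held CCAAT, against 37.5% of all genes. In class II promoters this element is known as the Y box. The genes counted here also include class I and proteasome genes. The element of interferon regulatory factors, 2 runs of GAAA with any 2 bases between them, stood in 1 of the 10, in 2 of the 3 interferon response genes that rose and had a promoter, and in 3.46% of all genes. The promoters of H2-Aa, Psmb9 and B2m are shown for these elements, with CCAAT or ATTGG and the interferon regulatory factor element in capitals.
H2-Aa (chr17:34287824-34287983, - strand): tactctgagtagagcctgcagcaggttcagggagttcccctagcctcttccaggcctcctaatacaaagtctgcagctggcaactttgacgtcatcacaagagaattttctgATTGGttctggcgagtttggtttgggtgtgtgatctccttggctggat
Psmb9 (chr17:34187331-34187490, - strand): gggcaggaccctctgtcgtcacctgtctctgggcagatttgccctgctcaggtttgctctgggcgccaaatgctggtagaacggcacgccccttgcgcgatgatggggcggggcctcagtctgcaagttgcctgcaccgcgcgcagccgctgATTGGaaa
B2m (chr2:122147527-122147686, + strand): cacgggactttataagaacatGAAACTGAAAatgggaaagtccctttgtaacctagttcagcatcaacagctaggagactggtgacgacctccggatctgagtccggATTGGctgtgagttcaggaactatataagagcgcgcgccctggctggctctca

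Of 18 macrophage markers, 6 were higher and 1 lower, and the summed signal was 4154 to 4451 in neonates and 5749 to 9291 in adults. C1qa and C1qc, complement chains made by tissue macrophages, rose by 1.55 (adjusted p = 1.96e-09) and 1.28 (adjusted p = 3.38e-06), and Lyz2, lysozyme, by 1.82 (adjusted p = 2.77e-06), while Lgals3, galectin-3, was called lower (adjusted p = 7.36e-05) at 78.1, 137.5 and 106 in neonates and 6.2 to 46.5 in adults, near background on all but 1 neonate array. Of 12 lymphocyte markers 2 were called higher, where 12.1% of all tested genes were. The T cell genes Cd3e, Cd3d, Cd3g and Cd8a were near background on all 15 arrays. The part of immune cell numbers in the antigen presentation result was not tested. In the complement and acute phase list 7 of 15 rose and 1 fell, with Cp, ceruloplasmin, at least 4.57-fold higher (adjusted p = 9.25e-07).

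Markers of other tissues were examined as well. Hepatocyte and lung epithelium markers had no called member of 14 and 4, and their summed signals overlapped between neonates and adults. Skeletal muscle markers summed to 7668 to 9335 in neonates and 9941 to 22974 in adults. The sum includes Acta1, which heart muscle also makes, at 1275 to 1597 in neonates and 3730 to 12882 in adults. Only 2 of 17 members were higher and none lower, where 12.1% of all tested genes were higher. Myh1, Myh2, Myh4 and Tnni2 were near background on all 15 arrays. Endothelial markers overlapped in sum, with 2 of 16 higher and 5 lower, where 12.1% of all tested genes were higher and 14.2% lower. Aqp1, a water channel, was among the higher (2.53, adjusted p = 2.73e-09) and Cldn5, a tight junction protein, among the lower (-1.98, adjusted p = 5.09e-06). Erythroid markers gave 4 falls and no rise of 15, beside the same shares, with sums of 39916 to 42857 in neonates and 7632 to 53160 in adults. Hbb-b2, a beta globin, was lower at -1.41 (adjusted p = 0.00162), but at -0.44 (adjusted p = 0.386) without the 3-month females, and Alas2, the heme synthesis enzyme of red cells, was -1.26 (adjusted p = 0.0153) and -0.24 (adjusted p = 0.734) without them; without neonate array 1 it was -0.99 (adjusted p = 0.136).

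Clock genes were called in both directions, 3 higher and 2 lower of 12 (median 0.32). Over all tested genes the shares were 12.1% higher and 14.2% lower. Nr1d2 and Nr1d1, repressors of the clock, rose by 1.76 (adjusted p = 3.74e-07) and 1.15 (adjusted p = 6.58e-05), and Arntl, which encodes BMAL1, fell by 1.25 (adjusted p = 0.00388); in the females alone Arntl was -0.79 (adjusted p = 0.109). The labels give no time of day of collection. Immediate early and heat shock genes, which respond to handling, gave 5 rises and 4 falls of 26 (median 0.19), beside the same shares. Hsph1, a chaperone, was higher by 1.88 (adjusted p = 2.82e-08) and Ier2, an immediate early gene, lower at -0.81 (adjusted p = 0.000175).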

How the data were processed

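Total RNA of heart ventricle was measured on Affymetrix arrays, per the labels. The authors' deposited values are linear probe set intensity, scaled per array; which software and settings made them is not stated in the labels, and no detection calls were used. Probe sets were named from GEO's platform annotation: of 9977 members, 8724 have 1 gene symbol, 346 several and 907 none, and a gene is its probe set with the highest mean log2 signal. Signals were set to a floor of 14.2, the 25th percentile of the table, and log2-transformed; probe sets above the floor on at least 3 of 24 arrays (9952) were tested with limma 3.58.1 in R 4.3.3, as 8 group means, with 16 residual degrees of freedom and a trend of the variance on intensity. The contrast weights the 4 adult groups equally. On simulated data with this comparison's 9952 probe sets, 77 of 100 changes of 2-fold and 100 of 100 of 4-fold were recovered, with 10 false calls. The noise was normal and all changes were placed in probe sets brighter than the median. Recovery among dimmer probe sets was therefore not measured. "Near background" means under 124.6; a gene near background on every array of a side is given as "at least" a fold, the brighter group's mean log2 signal against that level. No replicate numbers, slides or scan dates link arrays across groups. The number of arrays limits the precision.

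The members and gene lists were chosen with earlier results of these data known. Genes were named by a rule: the 15 largest rises and 15 largest falls whose neonate arrays lay outside the adult range, the 3 largest called members of each list in each direction, every measured isoform partner and the 3 brightest markers of each cell type; not all of these are printed. Other genes are said to be named after their values were seen. Lists are described by counts and medians only. Alternatives changed the floor, filter, pseudocount (16), normalization, trend, arrays and adult groups used; leaving out the 3-month females was chosen after seeing the data.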

Additional observations from a re-analysis of the deposited data

Results flagged for a closer look

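Among the genes singled out by the naming rule or above, 12 differed between the 4 adult groups, which the comparison with neonates averages over (moderated F test in limma, adjusted over all tested probe sets). The red cell transcripts were low in the 3-month females: Hba-a1 at 1230 to 5101 and Hbb-b2 at 218.9 to 1504, where the lowest other adult arrays gave 18062 and 7240 (adjusted p = 6.47e-06 for Hba-a1 and 2.88e-06 for Hbb-b2), and Alas2 at 21.7 to 130.2 (adjusted p = 7.96e-06). The same arrays were the highest adults for Scd1, a fatty acid desaturase, at 1277 to 3519 (adjusted p = 0.000261), for Nppb at 16437 to 23605 (adjusted p = 0.00343) and for Hbegf, a growth factor, at 931.4 to 1266 (adjusted p = 0.0255).

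The 1-year females were highest for the class I genes H2-D1, at 8789 to 10729 (adjusted p = 0.00725), and H2-K1, at 8670 to 11623 (adjusted p = 0.0255), and for Kcna5 at 884.6 to 1164 (adjusted p = 0.0156). Acta1 differed as well, with the 1-year females at 3730 to 7921 (adjusted p = 0.0227). Dnmt1 was at 48.4 to 104.7 in both female groups and at 103.5 to 503.1 in the other adults (adjusted p = 0.0013). Nppa differed between the groups (adjusted p = 0.0156), with 5-month males at 736.2 to 1330 and 3-month females at 2670 to 3148.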

How the results depend on the processing

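The counts of probe sets higher and lower in adults stayed within 1.5 times of the reported ones under every alternative run (floor, filter, pseudocount, quantile normalization, trend, arrays used, adult groups used, each array left out, and the 3-month females left out, where they were 1051 and 1266). Of 191 named genes past the threshold, 144 stayed past it with the same sign under every alternative, 47 were lost under at least 1 and none reversed. Where a call is said above to be lost, the settings given are not always all of those that lost it. The count differing among adult groups was 124 with the floor at the control 95th percentile and 37 to 222 with an array left out; adult against 4 weeks gave 58 to 128 higher and 56 to 131 lower with an array left out, and each 4-week array took the counts to 66 or fewer. No paired analysis was possible because the title numbers do not link samples of different groups.

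Signs reversed only among genes not past the threshold, and the cause was not tested. With the 1-year groups only, the difference was -0.025 for Actc1, 0.107 for Hba-a1 and 0.058 for Myl2. In the f-titled groups it was -0.05 for Actc1, 0.157 for Ank1, -0.10 for Casq1, 0.271 for Scgb1a1 and -0.479 for Sftpc. In the m-titled groups it was 0.143 for Cox8a, 0.182 for Hba-a1, -0.147 for Lum, 0.146 for Myl2, 0.054 for Myl3 and -0.091 for Ppargc1a. With 3m_f and 5m_m only, it was 0.027 for Casq2, 0.013 for Cox8a, 0.046 for Ldha, 0.04 for Myl3, 0.186 for Scgb1a1 and 0.007 for Slc2a1. Without the 3-month females it was 0.172 for Hba-a1, -0.061 for Lum, 0.189 for Myl2 and 0.068 for Myl3. Quantile normalization gave -0.056 for Actc1, and the higher floor -0.048 for Sftpc and 0.092 for Slc2a1. With each array left out in turn, the values ran from -0.06 to 0.081 for Actc1, -0.261 to 0.05 for Ank1, -0.163 to 0.083 for Casq2, -0.801 to 0.268 for Cox8a, -0.101 to 0.078 for Ldha, -0.006 to 0.2 for Lum, -0.107 to 0.068 for Myl3, -0.07 to 0.4 for Ppargc1a, -0.664 to 0.169 for Scgb1a1, -0.565 to 0.523 for Sftpc, -0.853 to 0.075 for Slc2a1 and -0.026 to 0.122 for Sox18. Of tested values, 37.9% lay under 124.6, where differences are imprecise.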
